A study of Mus musculus with 12 samples.

Results

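The genes described here encode enzymes that break amino acids down, or that use them to make creatine and to pass on methyl groups. They were chosen as a list of 49 genes by what their products do, with earlier results of these data known. Of the 49 genes, 48 had at least 1 probe, and 41 had a probe detected on at least 3 of the 12 arrays, a detection p under 0.05 against the negative controls of the same array. These 41 stood among 14882 features tested, 11616 of them named genes.

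Total RNA came from kidneys of CD-1 mouse embryos, each array holding 1 kidney pair, and was measured on Illumina mouse whole-genome BeadChips. The 12 arrays formed 4 groups of 3: wild-type (WT) and Pkd1null/null (mutant, Pkd1-/-) on embryonic day 14.5 (E14.5) or 17.5 (E17.5). By its label the null allele of Pkd1 was carried by the whole embryo, not by the tubules alone. The study saw no cysts at the younger age and marked cysts at the older. The study describes WT and mutant embryos as littermates, but the labels give no litter and match no mutant to a given WT embryo. Litter was therefore not in the model, and p-values measured the spread between embryos within groups. Replicates are named by their array numbers: 34, 57 and 58 (WT, E14.5), 35, 59 and 65 (mutant, E14.5), 2, 38 and 41 (WT, E17.5) and 12, 40 and 42 (mutant, E17.5).

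Amino acids that are not built into protein lose their nitrogen, and their carbon skeletons are burned or turned into glucose. In the kidney this work is done mainly by the proximal tubule, which takes filtered amino acids back from the urine and matures late in nephron development. Several of these enzymes are shared with the liver, and loss of some of them, such as HGD and FAH, causes inherited metabolic disease in people. The kidney also carries out the opening step of creatine synthesis and clears D-amino acids.

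The targeted gene was measured by 1 probe, detected on all 12 arrays. The log2 intensity of Pkd1 in E14.5 kidneys was 6.67 ± 0.27 (SD, n = 3) in WT and 7.47 ± 0.30 in mutants. In E17.5 kidneys it was 7.11 ± 0.44 in WT and 7.75 ± 0.11 in mutants. All mutant arrays lay above all WT arrays at both ages, which is not the direction of a lost transcript, but neither difference passed the test (adjusted p = 0.726 and 0.135, limma). The groups rest on the labels, and whether the probe lies in the deleted part of the gene was not tested. Arrays were alike in the number of detected probes, 19397 to 20290. E17.5 WT replicate 2 stood apart by liver genes: the mean log2 intensity of the 8 measured of 12 liver markers was 11.65 there, 7.26 and 8.19 on the other E17.5 WT arrays, and 6.59 to 6.98 in E17.5 mutants. The main E17.5 counts are therefore also given without that array. WT replicate 34 had the highest proximal tubule markers of the E14.5 arrays, a mean of 8.63 against 7.19 to 7.95 on the other 5, and 27 of the 41 genes were highest there within their group.

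Start-site sequences are shown for Haao and Dmgdh, which were called lower in E17.5 mutants, and for Bhmt2, Prodh2 and Agxt2, whose arrays lay apart at E17.5 without a call. Sequences and positions are from RefSeq on GRCm38.p6. Dmgdh and Bhmt2, which both act in methyl group transfer, lie head to head on chromosome 13, and the bases between their start sites are all of the upstream sequence that they share. Haao, the member with the largest called difference, lies on chromosome 17, and the bases before its start site are given in its own direction. Agxt2 on chromosome 15 and Prodh2 on chromosome 7 are shown with the only matches found among members to the motifs CAAAGTCCA (HNF4) and GTTAATNAT (HNF1), searched on both strands of the 250 bases before each start site and capitalised here. The motifs do not overlap in either window.
Dmgdh-Bhmt2, chr13:93674303-93674435, plus strand: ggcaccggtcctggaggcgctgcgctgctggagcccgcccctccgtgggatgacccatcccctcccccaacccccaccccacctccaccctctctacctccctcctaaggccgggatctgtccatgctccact
Haao, chr17:83846791-83846890, minus strand: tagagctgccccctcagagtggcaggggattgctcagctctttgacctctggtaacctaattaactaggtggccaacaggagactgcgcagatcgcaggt
Agxt2, chr15:10358492-10358532, plus strand: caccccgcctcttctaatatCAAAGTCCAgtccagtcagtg
Prodh2, chr7:30493511-30493559, plus strand, motif on the reverse strand: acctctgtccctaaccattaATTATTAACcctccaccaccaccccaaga

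HNF4 and HNF1 are transcription factors of the liver and the proximal tubule. Of the 44 members with a listed start site, 1 (2.27%) held each motif, against 0.384% of all 32851 start-site windows for HNF4 and 0.737% for HNF1. The share of members counts genes, and the 44 genes have 53 start sites. The other shares count single windows, so the units differ and the contrast cannot be read directly. With 1 member each, these shares describe letters in a window and nothing more.

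At E14.5 no difference between the genotypes passed the test for any of the 41 genes. The number called (limma, adjusted p under 0.05) was 0, where 0.0538% of all features were called in either direction. It was also 0 at an unadjusted p under 0.05, which 3.20% of all features passed. The median log2 fold change of the members was -0.03, against 0.00 (9.77e-04) for all features, and 27 of the 41 estimates lay below 0. Acadsb (higher in mutants) and Pcca and Amt (lower) had arrays that did not overlap between the genotypes, 3 of 41 members where 9.12% of all features lay apart. For Pcca this held for its brightest probe and not for its others. In the authors' own normalized table, Ddo was called higher in mutants, but it was detected on none of the 6 E14.5 arrays.

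At E17.5 the picture differed. Of the 41 members, 6 were called lower in mutants (Haao, Hgd, Dmgdh, Cth, Pcca and Gamt) and 0 higher, where 1.39% of all features were called lower and 1.78% higher. At an unadjusted p under 0.05, 19 were lower and 2 higher, where 8.39% of all features were lower and 11.7% higher. Haao and Dmgdh were detected on the 3 E17.5 WT arrays alone and so were kept only through the group where they were high. Both were also called with no filter on dim probes (adjusted p = 1.17e-06 and 0.00298, limma). Without WT replicate 2, 5 were called lower (Gamt was lost), where 0.605% of all features were. The median log2 fold change of the members was -0.36, against 0.02 for all features, and -0.29 without that replicate, and 35 of 41 estimates lay below 0. The arrays of the genotypes did not overlap for 17 members that were lower in mutants and 1 that was higher (Gldc), and overlapped for 23. Over all features, 10.4% lay apart with mutants lower and 13.8% with mutants higher. The count depended on single arrays: it was 3 (Haao, Dmgdh and Dao) without mutant replicate 40 and 4 without mutant replicate 12, while the calls over all features went to 135 and 226. Without WT E14.5 replicate 34, which enters only through the shared spread, it was 10, the 6 named above with Prodh2, Bhmt2 and Agxt2 lower and Gldc higher, with 523 calls over all features.

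**Figure D1:**
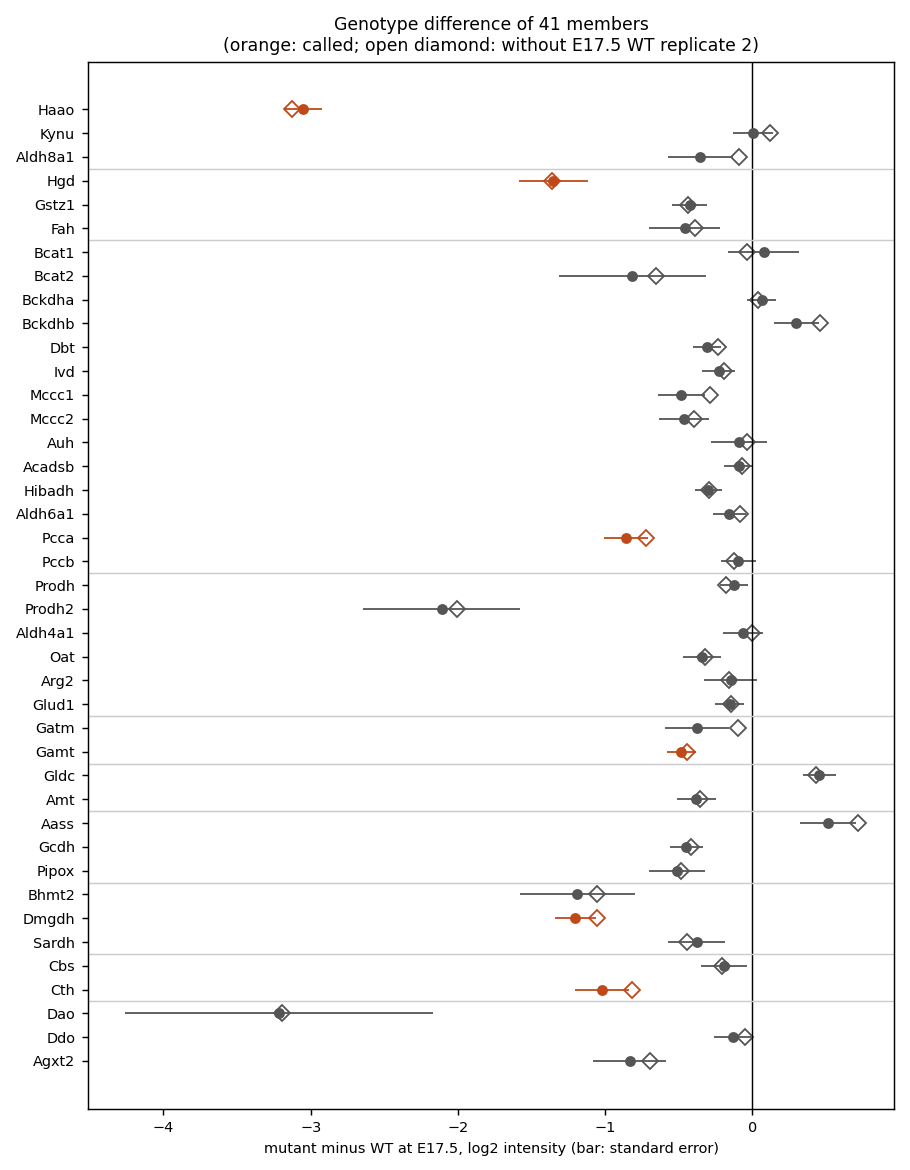
Mutant minus WT difference at E17.5 in log2 intensity for 41 amino acid breakdown genes, ordered by pathway with grey lines between pathways; points are limma estimates with standard errors, orange where called, and open diamonds are the estimates without E17.5 WT replicate 2. Of the 41 estimates 35 lie below 0, and the 6 called genes are all lower in mutants.

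Markers of several kidney cell types differed in level beside these genes. The mean log2 intensity of the 8 measured of 10 proximal tubule markers was 10.58 to 10.91 in E17.5 WT kidneys and 10.15 to 10.19 in E17.5 mutants, all 8 detected on at least 1 array of each group. Their median log2 fold change was -0.52 (-0.44 without WT replicate 2), and 1 of them was called, Slc22a8, an organic anion transporter, at -0.73 (adjusted p = 0.0305, limma). The endocytic receptors Lrp2 and Cubn had estimates of 0.01 and -0.07, and Hnf4a of -0.09. Slc13a3, Slc22a6, Slc34a1 and Aqp1 had -1.99, -0.81, -0.70 and -0.34, not called, so 7 of the 8 estimates lay below 0. The 2 loop of Henle markers had a mean level of 11.94 to 12.14 in E17.5 WT and 10.66 to 11.32 in E17.5 mutants. Of these, 1 was called lower, and 0 without WT replicate 2. Those of the distal tubule and collecting duct had a median of -0.56 (1 of 4 called lower). The single leukocyte marker measured was called higher at 0.82, and the 5 stromal markers had a median of 0.22 with none called. For podocyte and nephron progenitor markers the medians were 0.00 (-0.003) and -0.05, and for 3 skeletal muscle markers -1.52, with none called. All 8 measured liver markers had estimates below 0, with a median of -2.33 and 1 called lower. Without WT replicate 2 the liver median was -0.74, with none called. In bulk kidney RNA, fewer cells of a type and less RNA per cell cannot be told apart, and the part of these cell types in the members' differences was not tested.

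With age, most of these genes rose. In WT kidneys 29 of 41 rose from E14.5 to E17.5 and 2 fell (Bcat1 and Gldc), where 20.2% of all features were called higher and 23.5% lower. The median log2 change was 0.93, against -0.05 for all features. In mutants 24 rose and 3 fell (Bcat1, Oat and Gamt), where 21.7% of all features were called higher and 21.3% lower, with a median of 0.52 against -0.02. The 24 include Dmgdh, which was detected on no mutant array at either age, so without it there were 23 that were detected on at least 1 mutant array. Without WT replicate 2 the counts were 27 higher and 2 lower in WT, and 22 and 3 in mutants. The genotypes shared 23 of the genes that rose (22 without Dmgdh) and 1 that fell, 7 were called in WT only, 3 in mutants only and 7 in neither. Both comparisons with age share their arrays with the genotype comparisons. Of the 29 that rose in WT, 28 had the larger estimate in WT, as had 63.3% of the 3000 features called higher in WT, a direction that choosing genes by their WT rise favours. Kynu was the exception, with 0.69 in WT and 0.81 in mutants. Haao, Dmgdh, Gatm, Aldh8a1 and Ddo were detected on no E14.5 array. They were kept only through E17.5 arrays, where they were high, and all are among the 29. Where detection on all 12 arrays was required, 31 members were left. Of these, 23 were called with age in WT and 22 in mutants, in either direction. No share of all features is given for that filter. None is given for the age counts without WT replicate 2 or those shared between genotypes. These counts therefore cannot be read against a background.

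**Figure D2:**
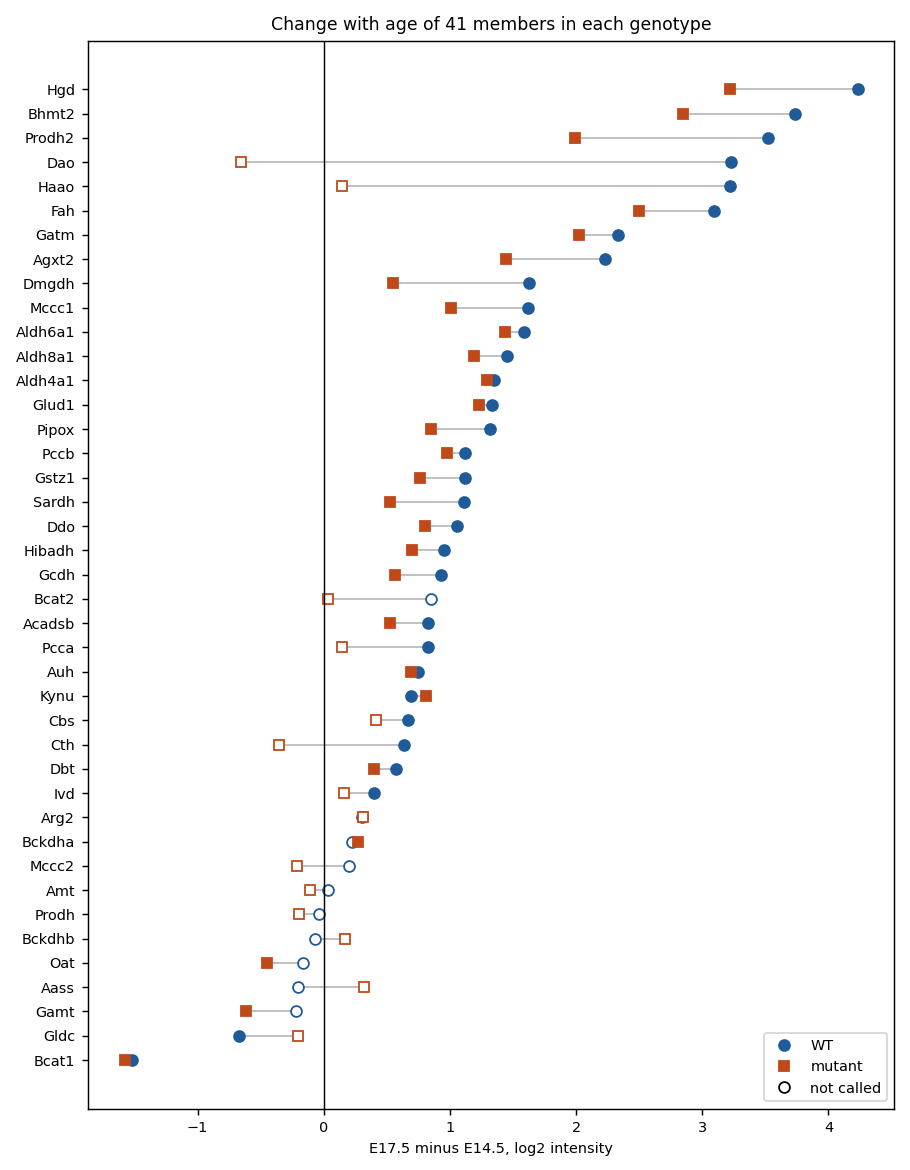
Change from E14.5 to E17.5 in log2 intensity of 41 amino acid breakdown genes in WT (blue circles) and mutant (orange squares) kidneys, filled where called by limma and open where not; sizes of genes at background, such as Haao, Dmgdh, Gatm, Aldh8a1, Cbs and Ddo at E14.5, are estimates and not bounds. Hgd has the largest rise in WT (4.23), and Haao rises by 3.22 in WT and by 0.15, not called, in mutants.

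The difference of the genotype effect between the ages was tested directly. It was called for 1 member, Haao, where 0.175% of all features were called in either direction. At an unadjusted p under 0.05, 10 members were more negative at E17.5 and 1 more positive, where 4.75% and 5.90% of all features were. The median over members was -0.29, against 0.02 for all features. A second member was called when 1 array was left out: Dmgdh at -1.24 (adjusted p = 0.0146, limma) without WT E17.5 replicate 38, and Dao (adjusted p = 0.0494) without mutant E17.5 replicate 40. By its brighter probe Dao is then at background on both E17.5 mutant arrays left, so no size is given for this difference. Its dimmer probe overlapped between the genotypes.

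**Figure D3:**
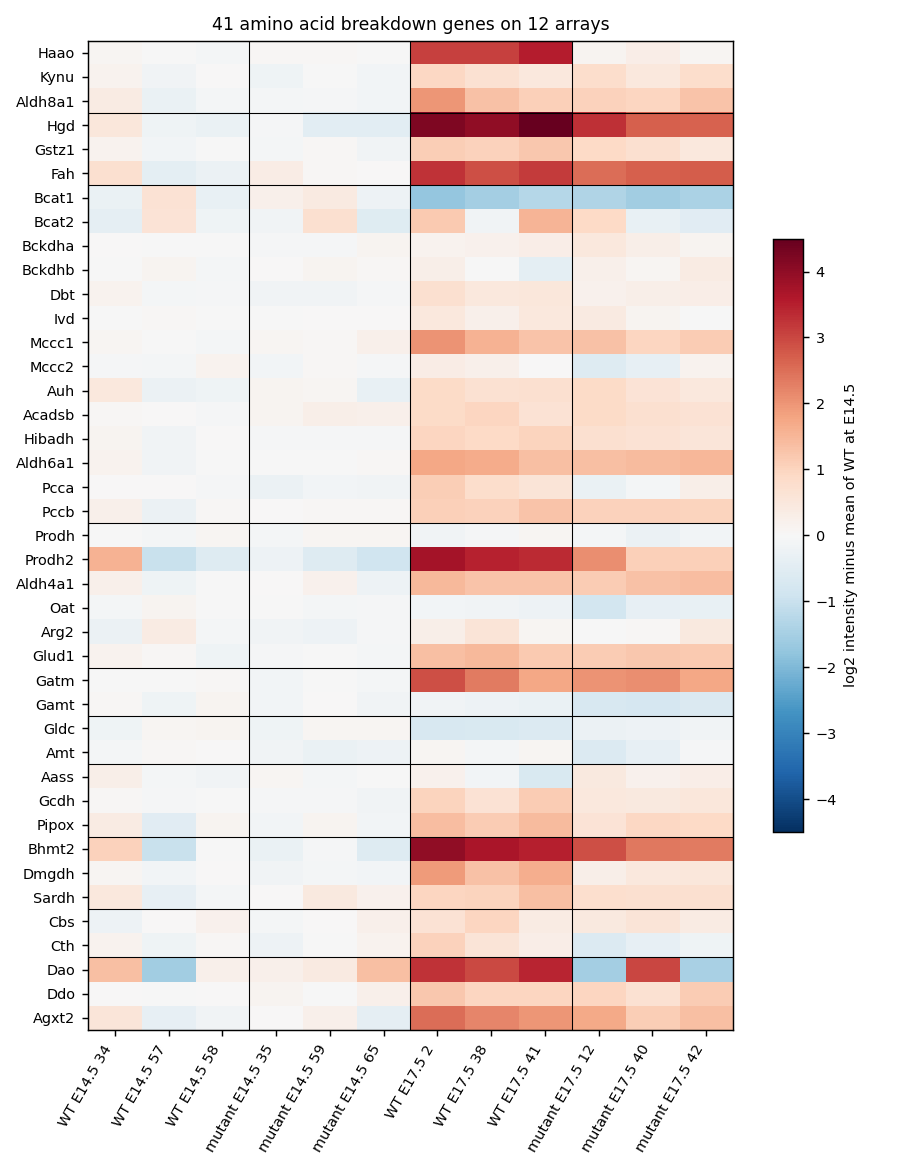
Log2 intensity of 41 amino acid breakdown genes on each of the 12 arrays, minus the mean of the 3 WT E14.5 arrays; columns are arrays by group and number, and black lines part the groups and pathways. The rows of Haao, Hgd, Prodh2, Bhmt2 and Fah are darkest on the 3 E17.5 WT arrays, and Bcat1 is lower on all 6 E17.5 arrays.

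In tryptophan breakdown, where Haao opens the ring of hydroxyanthranilate on the way to quinolinate and NAD, 3 of 5 genes were measured and all 3 rose with age in WT. On the E17.5 WT arrays Haao had log2 intensities of 7.66, 7.66 and 8.12 (replicates 2, 38 and 41). On the E17.5 mutant arrays it had 4.73, 4.89 and 4.68. Those of E14.5 gave 4.70, 4.56 and 4.52 in WT and 4.63, 4.63 and 4.59 in mutants. Haao was thus detected on all 3 E17.5 WT arrays and on none of the other 9, with no overlap. The estimate was -3.05 (SE 0.12, adjusted p = 1.53e-07, limma). Because the mutants were at background, the fold is a bound: at least 5.09-fold lower in mutants, and at least 4.98-fold higher in E17.5 than in E14.5 WT kidneys. For each array at background this bound uses the higher of the lowest detected signal and the gene's own. The difference between the ages was -3.07 (SE 0.18, adjusted p = 8.07e-06). The other kept probe of Haao had 6.63, 6.41 and 6.29 in E17.5 WT and 4.62, 4.70 and 4.61, not detected, in mutants. Its estimate was -1.80. This probe too was detected on the 3 E17.5 WT arrays alone and was kept only through them. A further Haao probe, detected on 1 array, was not kept. The likeness of the kept probes was therefore partly set by the filter. Without WT replicate 2 the estimate of the main probe was -3.13 (adjusted p = 1.22e-06).

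Kynu, the kynureninase just upstream of Haao, gave 8.35 ± 0.23 (SD, n = 3) in WT and 8.35 ± 0.19 in mutants at E17.5, an estimate of 0.00 (SE 0.14). Aldh8a1, which acts on the semialdehyde past the Haao step, was detected on no E14.5 array and rose with age in both genotypes, at least 1.77-fold in WT and at least 1.38-fold in mutants. At E17.5 its genotype estimate was -0.36 (adjusted p = 0.396), and -0.09 without WT replicate 2. Kmo, upstream of Kynu, was detected on no array. Acmsd, which diverts the product of Haao away from NAD, was detected on WT replicate 2 alone, the array with the highest liver markers.

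In tyrosine breakdown 3 of 4 genes were measured, and all 3 rose with age in both genotypes. Hgd encodes homogentisate dioxygenase, the enzyme missing in alkaptonuria. Its log2 intensities were 9.85, 9.65 and 10.12 in E17.5 WT kidneys and 8.92, 8.34 and 8.30 in E17.5 mutants. On the younger arrays they read 6.15, 5.44 and 5.33 (WT) and 5.57, 5.17 and 5.16 (mutants), detected on 1 array of each group. The E17.5 genotypes did not overlap, and both lay well above E14.5. The estimate between genotypes was -1.35 (SE 0.23, adjusted p = 0.0129, limma), 2.55-fold lower in mutants, and -1.36 (adjusted p = 0.0426) without WT replicate 2. It missed the threshold without mutant replicate 40 (adjusted p = 0.0594). Hgd rose by 4.23 in WT and by 3.22 in mutants, and the difference of these rises was not called (-1.01, SE 0.33, adjusted p = 0.336). A dimmer Hgd probe gave -0.55 between genotypes (adjusted p = 0.186 over kept probes).

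Fah, fumarylacetoacetate hydrolase, closes the pathway. Its E17.5 arrays read 12.46, 12.13 and 12.38 (WT) and 11.74, 11.91 and 11.95 (mutants). The E14.5 arrays gave 9.94, 8.77 and 8.97 (WT) and 9.56, 9.29 and 9.25 (mutants). The genotypes lay apart at E17.5 but the difference was not called (-0.46, SE 0.24, adjusted p = 0.315). Fah was 8.55-fold higher at E17.5 than at E14.5 in WT and 5.66-fold higher in mutants. Gstz1, the isomerase between Hgd and Fah, also lay apart at E17.5, with an estimate of -0.43 (adjusted p = 0.0749), and rose by 1.12 and 0.76. Hpd, just upstream of Hgd, was detected on WT replicate 2 alone.

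The branched chain amino acids leucine, isoleucine and valine contributed 16 genes, of which 14 were measured. At E17.5, 1 was called lower (Pcca) and the median estimate was -0.19. With age 9 rose and 1 fell in WT, and 8 rose and 1 fell in mutants. Pcca, the biotin-bearing subunit of propionyl-CoA carboxylase, had 9.92, 9.60 and 9.41 in E17.5 WT kidneys and 8.53, 8.75 and 9.08 in mutants. The E14.5 arrays gave 8.85, 8.83 and 8.78 in WT and 8.56, 8.71 and 8.65 in mutants. By this probe, its brightest, the genotypes did not overlap at either age. By the other Pcca probes they overlapped at E14.5. At E17.5 the estimate was -0.86 (SE 0.15, adjusted p = 0.0127, limma), 1.81-fold lower in mutants, and -0.72 (adjusted p = 0.0412) without WT replicate 2. It was not called without mutant replicate 40 (adjusted p = 0.0561). Its 3 probes did not give the same answer, with -0.86, -0.74 and 0.04. The partner subunit Pccb had an estimate of -0.10 (SE 0.12) and rose with age in both genotypes, by 1.12 and 0.98. By its brightest probe Pcca rose by 0.83 in WT and by 0.14, not called, in mutants. The age changes of both subunits depended on the probe. The other kept Pccb probe gave 0.38 in WT and was not called (adjusted p = 0.0604 over kept probes, limma). On both other Pcca probes, all E17.5 mutant arrays lay above all E14.5 mutant arrays.

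Mccc1, the biotin-bearing subunit of the leucine enzyme methylcrotonyl-CoA carboxylase, had 10.80, 10.35 and 10.08 in E17.5 WT and 10.12, 9.74 and 9.93 in mutants. The E14.5 arrays gave 8.88, 8.78 and 8.71 in WT and 8.87, 8.86 and 9.03 in mutants. The E17.5 genotypes overlapped (-0.48, adjusted p = 0.13), and the gene rose by 1.62 in WT and by 1.01 in mutants. Its partner Mccc2 had an estimate of -0.46 (adjusted p = 0.156) and was not called with age in either genotype. Aldh6a1, the semialdehyde dehydrogenase at the end of valine breakdown, rose by 1.59 and 1.44, and Hibadh, just upstream, rose by 0.95 and 0.70. Acadsb, Auh and Dbt rose in both genotypes, by 0.40 to 0.83. Ivd, the isovaleryl-CoA dehydrogenase, rose by 0.40 in WT and was not called in mutants (0.16). Bcat1, the cytosolic aminotransferase that opens the pathway, fell by 1.52 with age in WT and fell by 1.58 in mutants. Its mitochondrial counterpart Bcat2 varied widely within groups, from 7.53 to 9.25 in E17.5 WT, and gave -0.82 (SE 0.50). Bckdha and Bckdhb, subunits of the ketoacid dehydrogenase that commits the chains to breakdown, had estimates of 0.06 and 0.30 and were not called between genotypes. Hibch and Mut were detected on no array.

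Among the genes for proline, ornithine, arginine and glutamate, 6 of 7 were measured and none was called between genotypes at E17.5. Prodh2 encodes hydroxyproline dehydrogenase, which handles the hydroxyproline released from collagen. Its values were 10.75, 10.49 and 10.37 in E17.5 WT and 9.11, 8.07 and 8.10 in E17.5 mutants. The E14.5 arrays read 8.59, 6.02 and 6.43 (WT) and 6.77, 6.43 and 6.11 (mutants), with WT replicate 34 far above the others. All E17.5 WT arrays lay above all mutant arrays, with an estimate of -2.11 (SE 0.53, adjusted p = 0.0573, limma). Without WT E14.5 replicate 34 the same estimate had an adjusted p of 0.00279, and without WT E17.5 replicate 2 the adjusted p was 0.149. The other Prodh2 probes gave -2.16 and -2.31, with adjusted p of 0.0291 and 0.0331 over kept probes. Prodh2 rose with age by 3.52 in WT and by 1.99 in mutants.

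Prodh, the proline counterpart of Prodh2, was called in no comparison, with an estimate of -0.12 (SE 0.10) at E17.5. Aldh4a1, which takes over the products of both, rose by 1.35 and 1.29, and Glud1, the glutamate dehydrogenase that releases ammonia, rose by 1.33 and 1.23. Their genotype estimates at E17.5 were -0.07 (SE 0.14) and -0.16 (SE 0.10). The other kept Glud1 probes were not called with age in WT, at 0.30 and 0.31 (adjusted p = 0.310 and 0.385 over kept probes, limma). Between genotypes at E17.5 these probes gave -0.61 and -0.53, not called (adjusted p = 0.170 and 0.314). Oat, ornithine aminotransferase, fell by 0.45 with age in mutants and was not called in WT. Arg2, the mitochondrial arginase, was called in no comparison, and Got1 had no probe.

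Creatine is made by the successive action of Gatm and Gamt, classically Gatm in the kidney and Gamt in the liver. Gamt had 8.88, 8.80 and 8.74 in E17.5 WT and 8.32, 8.28 and 8.37 in E17.5 mutants. The E14.5 arrays gave 9.08, 8.84 and 9.16 in WT and 8.90, 9.05 and 8.87 in mutants. The E17.5 mutants were below all other arrays. The estimate was small, -0.49 (SE 0.10, adjusted p = 0.0270, limma), and the call was lost without any of WT replicates 2 (0.0881) and 38 (0.0572) and mutant replicates 12 (0.0622), 40 (0.0957) and 42 (0.0567), each an adjusted p. Gamt fell by 0.62 with age in mutants and was not called in WT (-0.22). Gatm moved the other way with age. It was detected on no E14.5 array, at 4.71, 4.71 and 4.77 in WT and 4.61, 4.72 and 4.65 in mutants. It was detected on all E17.5 arrays, at 7.62, 7.08 and 6.48 in WT and 6.75, 6.82 and 6.48 in mutants. Gatm was at least 2.95-fold higher at E17.5 in WT (adjusted p = 1.48e-05) and at least 2.27-fold higher in mutants (adjusted p = 3.94e-05). The E17.5 genotypes overlapped, with an estimate of -0.37 (adjusted p = 0.362) and of -0.10 without WT replicate 2.

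**Figure D4:**
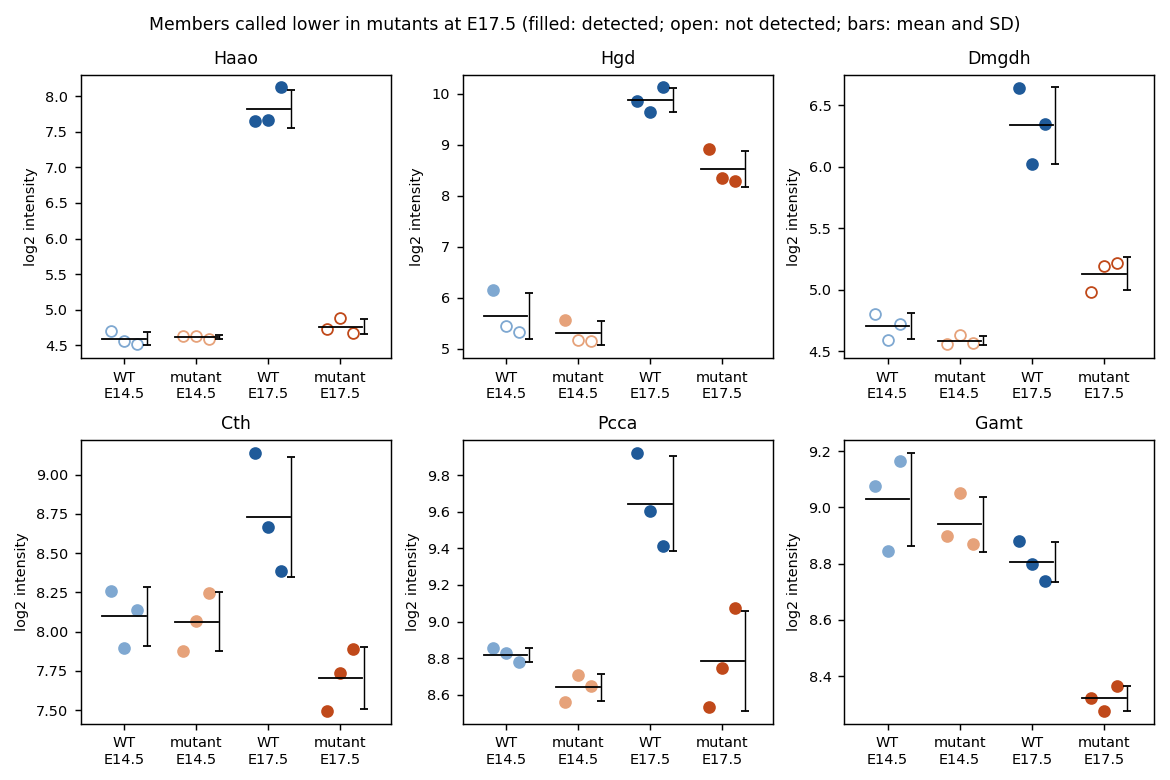
Log2 intensity of the 6 genes called lower in E17.5 mutants, 1 point per array in 4 groups of 3, filled where detected, with the group mean and SD; axes do not start at 0. Haao and Dmgdh are detected on the 3 E17.5 WT arrays and on no other, and in all 6 panels the E17.5 mutant arrays lie below the E17.5 WT arrays.

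The glycine cleavage system frees a methylene group and ammonia from glycine. Gldc, its decarboxylase, was the only member whose E17.5 mutant arrays lay above all WT arrays, at 10.43, 10.45 and 10.52 against 9.97 to 10.06. The estimate was 0.45 (SE 0.11, adjusted p = 0.0511, limma) and was not called. Gldc fell by 0.67 with age in WT, and its change in mutants was not called (-0.21). Amt, the aminomethyltransferase of the system, had an estimate of -0.38 (adjusted p = 0.138) and did not pass the test with age, and Gcsh was detected on a single array.

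For lysine, Gcdh, glutaryl-CoA dehydrogenase, lay apart at E17.5 with an estimate of -0.45 (adjusted p = 0.0554), and rose by 0.93 in WT and by 0.56 in mutants. Pipox, which oxidises pipecolate, also lay apart (-0.51, adjusted p = 0.163) and rose by 1.32 and 0.85. Aass, which starts the main route, was near background throughout, at 4.92 to 6.03, and was called in no comparison.

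Choline is oxidised to betaine, whose methyl groups pass in turn to homocysteine and to folate, while Bhmt2 does the same from another methyl donor. All 3 measured of these 4 genes had estimates below 0 at E17.5, with a median of -1.19. Dmgdh, dimethylglycine dehydrogenase, had 6.64, 6.02 and 6.35 in E17.5 WT. In E17.5 mutants it had 4.98, 5.20 and 5.22. On the E14.5 arrays Dmgdh gave 4.80, 4.60 and 4.72 (WT) and 4.56, 4.63 and 4.57 (mutants). It was detected, like Haao, on the 3 E17.5 WT arrays and on no other. The estimate was -1.20 (SE 0.14, adjusted p = 0.00106, limma), at least 1.83-fold lower in mutants, and -1.05 (adjusted p = 0.00221) without WT replicate 2. With age it was at least 1.79-fold higher in WT. The difference between the ages missed the threshold (-1.08, SE 0.20, adjusted p = 0.0663).

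Bhmt2, which shares its upstream stretch with Dmgdh as printed above, methylates homocysteine from S-methylmethionine. Its values were 10.74, 10.42 and 10.25 in E17.5 WT and 9.65, 9.12 and 9.08 in mutants. The E14.5 arrays read 7.76, 5.74 and 6.72 (WT) and 6.43, 6.69 and 6.17 (mutants). The E17.5 genotypes lay apart, but the estimate of -1.19 (SE 0.39) was not called (adjusted p = 0.121). It was called without WT E14.5 replicate 34 (adjusted p = 0.0334), and without WT E17.5 replicate 2 the estimate was -1.05 (adjusted p = 0.275). Bhmt2 rose by 3.73 in WT and by 2.85 in mutants. Sardh, which acts after Dmgdh on sarcosine, lay apart at E17.5 (-0.38, adjusted p = 0.298) and rose by 1.11 and 0.52. In the fit without WT replicate 2 its rise in mutants was not called (adjusted p = 0.0525). Bhmt, the betaine enzyme itself, was detected on WT replicate 2 alone.

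Transsulfuration turns homocysteine into cysteine. Cth, cystathionine gamma-lyase, had 9.14, 8.66 and 8.39 in E17.5 WT and 7.50, 7.74 and 7.89 in mutants. The E14.5 arrays gave 8.26, 7.89 and 8.13 in WT and 7.88, 8.07 and 8.25 in mutants. WT arrays lay above mutant arrays at E17.5 and overlapped them at E14.5. The estimate was -1.02 (SE 0.18, adjusted p = 0.0154, limma), 2.03-fold lower in mutants, and -0.82 (adjusted p = 0.0409) without WT replicate 2. It was not called without mutant replicate 12 (adjusted p = 0.0563) or 40 (adjusted p = 0.0569). Cth rose with age in WT by 0.63 and had an estimate of -0.36 (adjusted p = 0.141) in mutants. Without WT replicate 2 the rise in WT was not called (0.43, adjusted p = 0.0560). The difference between the ages was not called (-0.99, SE 0.26, adjusted p = 0.246). Cbs, the synthase just upstream, rose in WT (at least 1.33-fold, adjusted p = 0.00521) and was not called between genotypes (-0.19, SE 0.16).

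All 3 genes for D-amino acids and aminoisobutyrate were measured, and none was called between genotypes at E17.5. Agxt2 is a mitochondrial aminotransferase that also clears dimethylarginine. It had 8.50, 8.19 and 7.97 in E17.5 WT and 7.69, 7.11 and 7.35 in mutants. The E14.5 arrays gave 6.53, 5.63 and 5.82 in WT and 6.01, 6.23 and 5.59 in mutants. The genotypes lay apart at E17.5, with an estimate of -0.83 (SE 0.25, adjusted p = 0.0932, limma), and -0.69 (adjusted p = 0.238) without WT replicate 2. It was called without WT E14.5 replicate 34 (adjusted p = 0.0484). The other Agxt2 probes gave -0.96 and -0.81, with adjusted p of 0.0398 and 0.0490 over kept probes. Agxt2 rose by 2.23 in WT and by 1.44 in mutants.

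Dao, D-amino acid oxidase, depended on the probe. By the brighter probe it had 9.40, 9.10 and 9.57 in E17.5 WT and 4.59, 9.14 and 4.67 in E17.5 mutants, so that mutant replicates 12 and 42 were at background and replicate 40 was within the WT range. At E14.5 that probe gave 7.47, 4.58 and 6.35 in WT and 6.35, 6.53 and 7.50 in mutants. By the dimmer probe the E17.5 mutants gave 6.21, 5.86 and 6.95, against 6.82, 6.07 and 6.94 in WT. The dimmer probe thus overlapped between genotypes and was detected on all 6 E17.5 arrays. By the brighter probe the estimate was -3.22 (SE 1.05, adjusted p = 0.119, limma). Without mutant replicate 40 it was called (adjusted p = 0.00760), with both mutant arrays left at background and a bound of at least 14.7-fold lower. That bound holds for the brighter probe only. On the same arrays, 12 and 42, the dimmer probe was detected at 6.21 and 6.95, against 6.07 to 6.94 in WT. By the dimmer probe, with all arrays, it was -0.27 (adjusted p = 0.699 over kept probes). The rise in WT was 3.23 by the brighter probe and 1.54 by the dimmer one, and by the brighter probe it was not called without WT replicate 2 (adjusted p = 0.0575). Ddo, which oxidises D-aspartate, was detected at E17.5 and on no E14.5 array, at least 1.22-fold higher in WT and at least 1.11-fold higher in mutants.

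**Figure D5:**
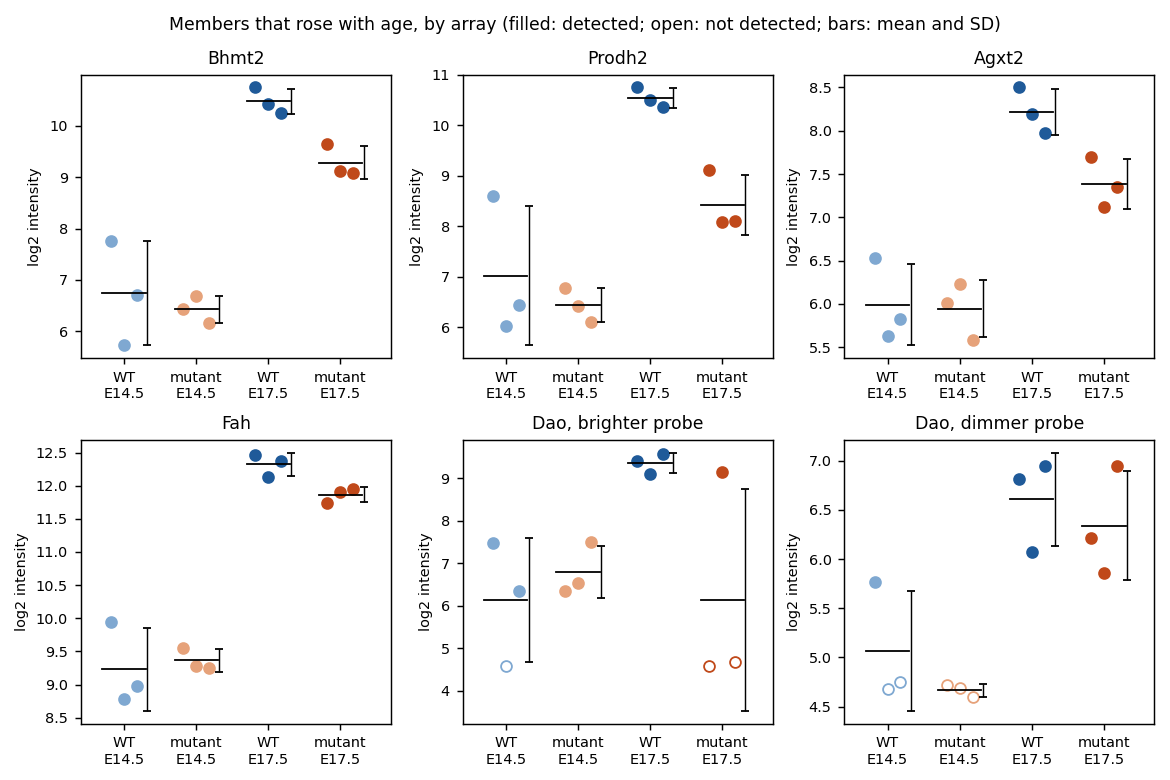
Log2 intensity of Bhmt2, Prodh2, Agxt2 and Fah and of both kept probes of Dao, 1 point per array in 4 groups of 3, filled where detected, with the group mean and SD; axes do not start at 0. The 4 single-probe panels show E17.5 WT above E17.5 mutants and both above most E14.5 arrays, while the brighter Dao probe is at background on 2 of the 3 E17.5 mutant arrays and the dimmer one is not.

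A wider list of 71 other genes of amino acid metabolism, of which 44 were measured, was read beside the members. At E17.5, 4 were called lower in mutants and 1 higher, where 1.39% of all features were called lower and 1.78% higher. The median was -0.14, against 0.02 for all features. Without WT replicate 2 the counts were 1 and 1, where 0.605% of all features were called lower. Gpt2, the mitochondrial alanine aminotransferase, was higher in mutants by 0.88 (adjusted p = 0.0112, limma). Kyat1 (-0.53), Acad8 (-0.68) and Echs1 (-0.30) were lower but lost their calls without WT replicate 2 (adjusted p = 0.0763, 0.0687 and 0.115). Uroc1, the urocanase of histidine breakdown, was lower by an estimate of -1.35, and of -0.88 without that replicate (adjusted p = 0.0154). It was detected on 3 E17.5 WT arrays, 1 E17.5 mutant array and no E14.5 array, so these sizes depend on the background. In WT 19 of these 44 genes rose with age and 6 fell, where 20.2% of all features were called higher and 23.5% lower. Their median was 0.22, against -0.05 for all features.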

How the data were processed

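Total RNA of 12 kidney pairs was hybridised to Illumina mouse whole-genome BeadChips. The authors deposited bead summary intensities that were not normalized between arrays but already background-subtracted (31.3 to 34.0% of values at or below 0), each with a detection p-value, and a second table of intensities that they had normalized, used here as an alternative. Arrays were grouped by the deposited genotype and age.

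Intensities were corrected by normexp (offset 16, array noise estimated through the detection p-values), quantile normalized and log2 transformed in limma 3.58.1 (R 4.3.3). Of 45281 probes, 21526 were detected (p under 0.05) on at least 3 arrays and kept. Names came from the platform annotation: 34885 probes carried 1 symbol, 18 several and 10378 none. The brightest kept probe stood for a gene, and probes with several symbols or none were tested by identifier. The members had 84 probes, 61 of them kept. Genes not kept lay too near the background for a comparison.

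All 4 groups were fitted together with limma (1 mean per group, empirical Bayes). The 5 contrasts were adjusted by Benjamini-Hochberg over 14882 features and called at an adjusted p under 0.05. SEs and SDs are on the log2 scale. The fit was tested on simulated data. Every array was printed for each member called between genotypes or for the difference between ages, and for the 10 with the largest change with age in WT. Genes such as Gldc, Bcat2, Kynu and Pkd1 were described for other reasons, after their values were seen. The members and all lists were chosen with earlier results of these data known. Alternatives varied the background, normalization, filter, probe choice, arrays in the fit, call rule and each array left out. The number of arrays limits the precision.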

Additional observations from a re-analysis of the deposited data

Results flagged for a closer look

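Haao was singled out because its genotype effect differed between the ages by a direct test. The effect was 0.02 at E14.5 and -3.05 at E17.5 on the log2 scale, and the difference was -3.07 (SE 0.18, adjusted p = 8.07e-06, limma). Both E14.5 groups and the E17.5 mutants were at background, so the size of the difference depends on the background correction. Without further background correction it was -6.80, and with an offset of 50 it was -2.09.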

How the results depend on the processing

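No paired analysis was possible because the groups share no replicate numbers in the labels. A block for the slide was not run, since no slide is named. Of the counts of called members, these moved by over 1.5 times. At E17.5 the 6 became 10 with a normexp offset of 50 (Prodh2, Gcdh and Agxt2 also lower, Gldc higher), and leaving out 1 array gave 3 (without mutant replicate 40) to 10 (without WT E14.5 replicate 34). At E14.5 the 0 became 1 in the authors' table (Ddo at 6.30, adjusted p = 0.00484, a gene detected on no E14.5 array). For the difference between ages the 1 became 0 where detection on all 12 arrays was required, since Haao is then not tested, and leaving out 1 array gave 1 to 2. Under the study's call rule, at least 2-fold with p at most 0.05, unadjusted for genotype and adjusted for age, the 31 called with age in WT became 20, the 27 in mutants 12 and the 1 for the difference 4. No estimate of the 6 genes called between genotypes at E17.5, nor Haao's difference between ages, changed direction in a setting that gave a value. Haao and Dmgdh kept their calls at E17.5 in all 19 settings that gave a value, and Haao kept its difference between ages in all 17. The authors' table gave no value for that difference of Haao, so the 1 member called for it there was another gene. Calls were lost for Hgd in 3 settings (without further background correction, adjusted p = 0.0772, in the authors' table, 0.0793, and without mutant replicate 40), Pcca in 2 (with only the 6 arrays compared, 0.0761, and without mutant replicate 40), Cth in 3 (with only those 6 arrays, 0.0622, and without mutant replicates 12 or 40) and Gamt in 7. The cause was not tested. The median change of all features stayed under 0.1 on the log2 scale in each scaling tried. Normalization between arrays favours such a result. In the main setting every array had the same median log2 intensity, 5.16, so the small change is no check on the scaling. Genes near background, such as Haao, Dmgdh, Gatm, Aldh8a1, Ddo, Cbs and Aass, have fold sizes that depend on the background.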
